A study of Homo sapiens with 16 samples.

Results

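The comparison described here set HT-1080 cells depleted of DCAF8 against control cells while both were exposed to erastin. It drew on 4 of the 16 libraries of the series, 2 labelled siDCAF8/Erastin and 2 labelled siNS/Erastin, and on every gene with values in them, which came to 17552 of the 24107 entries of the deposited table. The cells were HT-1080, a human fibrosarcoma line much used to study ferroptosis. The siNS/Erastin cells carried the control siRNA and the siDCAF8/Erastin cells an siRNA against DCAF8, and both had received erastin at 10 µM for 24 h. Untreated siNS and siDCAF8 cells, with 2 libraries each, showed the same depletion without erastin, and 2 siDCAF8+siLSH/Erastin libraries, with siRNAs against both DCAF8 and LSH, gave a further treated arm. The other groups of the series, with 2 libraries each, were cells overexpressing WDR76 (oeWDR76), with and without erastin, and untreated siDCAF8+siLSH cells. All 8 groups entered the fit that gave the p-values and the filter on mean level. The group names decided which libraries counted as treated. How many siRNAs were used, their sequences and the time from transfection to harvest were not given in the sources used here. Off-target effects of the siRNA therefore cannot be told apart from loss of DCAF8. The depletion's effect below means the difference between cells with the DCAF8 siRNA and cells with the control siRNA. It is not stated whether the 2 libraries of a group are separate cultures, and the p-values therefore cover only the variation among these libraries, which may be technical.

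CRL4 ubiquitin ligases use DCAF8 as one of many substrate receptors. In them a CUL4 scaffold, the adaptor DDB1 and the RING protein RBX1 bring a ubiquitin-carrying enzyme to whatever protein the receptor holds. Erastin blocks system xc-, the antiporter built from SLC7A11 and SLC3A2 that imports cystine in exchange for glutamate. Cells reduce cystine to cysteine and build glutathione from it, and GPX4 uses glutathione to remove lipid peroxides. When that chain fails, iron-driven peroxidation of membrane lipids kills the cell by ferroptosis. Shortage of amino acids is sensed by the kinase GCN2, which raises translation of the transcription factor ATF4 and with it the genes of amino acid uptake and synthesis.

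Values are FPKM, fragment counts scaled to transcript length and to the fragments mapped, and are therefore relative to the rest of each library. Differences are on the scale of log2(FPKM + 1), positive where siDCAF8/Erastin was higher, and a gene was called where limma gave an adjusted p under 0.05 after Benjamini-Hochberg adjustment over the 11260 genes whose mean was 1 FPKM or more. Folds are 2 to the power of these differences. The depth estimated from the steps between low FPKM values was 16.4 to 16.7 M fragments (M, mega) in the 4 libraries, and Pearson's r across genes was 0.996 between the libraries of each group. In bulk RNA of this kind, fewer cells of a type and less RNA per cell cannot be told apart. The mesenchymal markers VIM, SPARC and CDH2 were present and FAP was at 0 in siDCAF8/Erastin. The summed level of the 9 markers was 1691.83 to 1770.51 FPKM in siNS/Erastin and 1723.13 to 1870.74 FPKM in siDCAF8/Erastin. Of the 7 markers tested, 4 were called lower and 2 higher (30% and 34.8% of all tested genes), with a median of -0.3. The 6 epithelial markers summed to 3.71 to 6.18 FPKM in all 4 libraries, with KRT5 at 0. The 6 leukocyte markers summed to 234.29 to 237.39 FPKM in siNS/Erastin and to 168.37 to 180.66 FPKM in siDCAF8/Erastin, nearly all of it from CD68 and LCP1.

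DCAF8 itself (gene 50717, GRCh38 chromosome 1, 160215720 to 160262549) was lower in the siDCAF8/Erastin libraries. It measured 36.66 FPKM in both siNS/Erastin libraries and 10.75 and 10.34 FPKM in the siDCAF8/Erastin libraries. The groups lay far apart, with a 3.26-fold fall (log2 -1.71, SE 0.08, limma adjusted p = 5.83e-11). Untreated cells showed nearly the same fall, from 38.9 and 40.43 to 11.8 and 12.23 FPKM, and the effects with and without erastin did not differ by the test (-0.06, SE 0.11, adjusted p = 0.735).

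The change in the transcriptome was broad. The test called 7293 of 11260 genes (64.8%), with 3917 higher (34.8%) and 3376 lower (30%), and 9120 genes (81%) had libraries of the groups that did not overlap. Most differences were small: 490 genes (4.35%) were called and changed at least 2-fold, 184 of them higher (1.63%) and 306 lower (2.72%). The median difference over all tested genes was 0.03. In untreated cells 6863 genes (61%) were called. The difference between the depletion's effects with and without erastin was called for 2341 genes (20.8%), 1233 higher (11%) and 1108 lower (9.84%), and this count was between 1315 and 1532 when siNS/Erastin replicate 1, siNS replicate 1 or siDCAF8 replicate 1 was left out. With so many genes called, the counts for gene groups below are read against these shares. The groups were chosen with earlier results of these data known, so the counts are descriptive.

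Other subunits of the ligase moved in both directions. Of 25 tested CRL4 subunits and substrate receptors, DCAF8 included, 11 were higher and 8 lower (34.8% and 30% of all tested genes), with a median of 0.12. CUL4A, one of the 2 scaffolds, stood at 20.96 and 23.71 FPKM in siNS/Erastin and at 53.47 and 44.64 FPKM in siDCAF8/Erastin, a 2.14-fold rise (adjusted p = 2.3e-09). The paralogous scaffold CUL4B rose by 0.46 and the adaptor DDB1 by 0.21, while RBX1 fell by 0.40. Among receptors, DCAF17 rose by 0.87, DCAF4 by 0.82, DCAF6 by 0.70 and DTL, which directs the ligase to replication factors, by 0.70, and DCAF1 fell by 0.49.

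HELLS (gene 3070, chromosome 10, 94545788 to 94613905) encodes LSH, a chromatin remodeller needed for normal DNA methylation. Its RNA was 3.6 and 3.37 FPKM in siNS/Erastin and 5.85 and 5.89 FPKM in siDCAF8/Erastin, a rise of 0.62 (SE 0.07, adjusted p = 1.12e-06). CDCA7, which recruits LSH to chromatin, rose 2.03-fold, from 14.2 and 13.95 to 27.89 and 31.29 FPKM. TDG, a glycosylase of active demethylation, rose by 0.80, TET3, a methylcytosine oxidase, rose by 0.62, and the de novo methyltransferase DNMT3A fell by 0.72. Over 20 genes of LSH and DNA methylation, 8 were higher and 3 lower, beside 34.8% and 30% of all tested genes. WDR76, a WD40-repeat protein and further candidate ligase receptor (gene 79968, chromosome 15, 43827002 to 43868412), was at 2.92 and 3.68 FPKM in siNS/Erastin and at 3.63 and 3.57 FPKM in siDCAF8/Erastin and was not called (0.10, adjusted p = 0.419). Without erastin it rose, from 3.52 and 2.89 to 5 and 5.31 FPKM (0.55, adjusted p = 0.00032). The difference of effects was -0.45 (adjusted p = 0.0471), a call lost without siNS/Erastin replicate 2 (-0.32), siNS replicate 2 (-0.34) or any one of the 4 siDCAF8 and siDCAF8/Erastin libraries (-0.41 to -0.49), and with the replicate block (adjusted p = 0.0511).

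**Figure D1:**
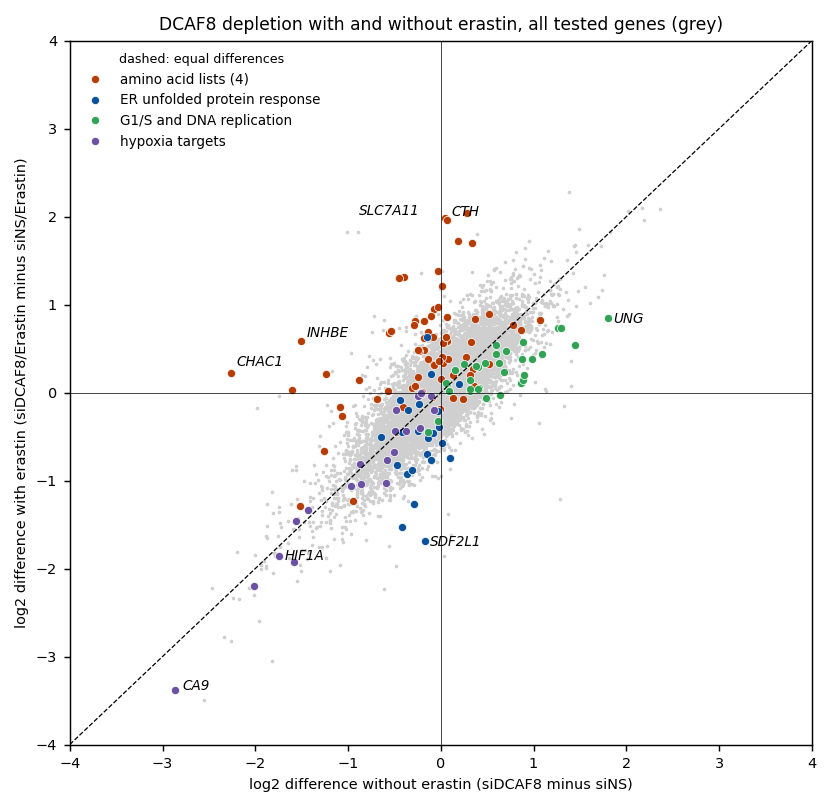
Difference of siDCAF8/Erastin from siNS/Erastin against the difference of siDCAF8 from siNS, both on the log2(FPKM + 1) scale, for the 11260 tested genes, with members of selected gene lists coloured. SLC7A11 sits at 1.96 with erastin and 0.07 without, while MMP9 is below 0 on both axes, at -3.50 and -2.55.

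Genes of amino acid supply moved differently with and without erastin. Taking ATF4 regulators and effectors, serine and one-carbon enzymes, amino acid transporters and cytosolic tRNA synthetases together, 70 genes were tested. These lists were chosen with earlier results of these data known, so the counts describe their members and are no test of them. With erastin 47 of them were higher in siDCAF8 and 5 lower, with a median of 0.40, against 34.8% and 30% of all tested genes. Without erastin 14 were higher and 27 lower (31% and 29.9% of all tested genes), with a median of -0.08. The difference between these effects was called higher for 49 and lower for 3 (11% and 9.84% of all tested genes), with a median of 0.56 against 0.01 over all genes. The same libraries can also be compared with and without erastin for each siRNA, which restates that difference and does not locate its origin. In siNS cells, 52 of the 70 genes were lower in both erastin-treated libraries than in both untreated ones, against 39.6% of all tested genes, and 10 were higher in both (30.2% of all tested genes). In siDCAF8 cells 11 of the 70 were lower with erastin (37.5% of all genes) and 38 were higher (32% of all genes).

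Several of these genes carry the composite element that ATF4 binds together with C/EBP proteins, TGATGNAAN, within the 250 bases before their start. Searching both strands of RefSeq promoters (GRCh38.p14), this run of letters was found in 4 of 17 ATF4 regulators and effectors with a promoter sequence, 3 of 12 serine and one-carbon enzymes, 2 of 10 transporters and 3 of 16 tRNA synthetases, and in 214 of 9283 tested genes (2.31%). The following stretches are written 5′ to 3′ in the direction of the gene, with the match in capitals, and are those of the 9 matching members of the first 3 of these lists. Those of the tRNA synthetases AARS, IARS and GARS are not shown. In CHAC1 and GOT1 the match is on the opposite strand.
CHAC1: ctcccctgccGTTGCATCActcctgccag
CEBPG: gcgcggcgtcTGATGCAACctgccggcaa
JDP2: tagccggggcTGATGCAACccgtccc
ATF3: aaggtcaggaTGATGGAAGgctgtcatat
ASNS: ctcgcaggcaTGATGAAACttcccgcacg
GOT1: aattgcattgGTTGCATCAttctcggcag
MTHFD1L: ccgccggctcTGATGCAATcgcgccgggc
SLC1A5: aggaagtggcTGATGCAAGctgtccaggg
SLC1A3: aggaaatgacTGATGCAAAgcagggttaa
These lie at chr15:40953251-40953279 on the plus strand, chr19:33374061-33374089 on the plus strand, chr14:75427996-75428021 on the plus strand, chr1:212565206-212565234 on the plus strand, chr7:97872458-97872486 on the minus strand, chr10:99430805-99430833 on the minus strand, chr6:150866347-150866375 on the plus strand, chr19:46784893-46784921 on the minus strand and chr5:36596358-36596386 on the plus strand, in the order of the lines. A match describes the letters only and does not show that a factor binds there. Of the genes on these lines with no further values below, GOT1, a transaminase of aspartate, rose from 29.17 and 31.5 to 50.56 and 48.47 FPKM (0.69, adjusted p = 3.18e-07), MTHFD1L, a mitochondrial folate enzyme, rose by 0.38, and the stress factor ATF3 was not called, at 10.64 and 9.82 against 8.89 and 12.17 FPKM (adjusted p = 0.856).

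Transporters were led by the target of erastin. SLC7A11, the cystine-carrying subunit of system xc- (chromosome 4, 138164097 to 138242349), measured 2.02 and 2.69 FPKM in siNS/Erastin and 15.43 and 9.32 FPKM in siDCAF8/Erastin. Both depleted libraries lay above both controls, although they differed from each other, and the rise was 3.90-fold (log2 1.96, SE 0.16, limma adjusted p = 2.05e-08). Without erastin the level was 5.86 and 5.43 FPKM in siNS and 6.78 and 5.22 FPKM in siDCAF8, with no call (0.07, adjusted p = 0.738). The effects with and without erastin differed by 1.90 (SE 0.23, adjusted p = 5.44e-05). SLC3A2, the heavy chain that holds SLC7A11 in the membrane, went from 54.85 and 59.4 to 92.31 and 92.06 FPKM with erastin, a rise of 0.68, but fell by 0.56 without it.

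Other carriers of neutral amino acids shared this pattern. SLC7A5, the leucine carrier that also pairs with SLC3A2, was at 43.34 and 44.58 FPKM in siNS/Erastin and at 119.37 and 89.76 FPKM in siDCAF8/Erastin (1.22, adjusted p = 2.82e-08). SLC1A4, which carries alanine and serine, was at 3.28 and 3.34 against 12.54 and 7.4 FPKM (1.31, adjusted p = 2.19e-06). The glutamine carrier SLC1A5 stood at 80.55 and 77.86 against 154.19 and 135.18 FPKM, a rise of 0.86. In untreated siDCAF8, SLC7A5 (0.02) and SLC1A5 (0.07) were not called and SLC1A4 fell by 0.45. Over the list, 10 of 12 tested transporters were higher and 1 lower, with a median of 0.53. The one that fell was SLC1A3, a glutamate and aspartate carrier, from 38.9 and 39.6 to 16.44 and 15.78 FPKM (-1.23, adjusted p = 7.75e-11), and its promoter stretch above also holds the element.

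Enzymes of cysteine, serine and one-carbon metabolism followed the transporters. CTH, cystathionine gamma-lyase, which makes cysteine from cystathionine without any cystine import (chromosome 1, 70411268 to 70439851), stood at 3.84 and 4.19 FPKM in siNS/Erastin and at 21.43 and 16.63 FPKM in siDCAF8/Erastin. That was a 3.97-fold rise (log2 1.99, SE 0.11, adjusted p = 1.88e-10), with no call in untreated cells (0.05, adjusted p = 0.701). CBS, the enzyme before it in transsulfuration, rose by 0.62, from 13.66 and 13.71 to 24.84 and 18.83 FPKM. GPT2, the mitochondrial alanine transaminase (chromosome 16, 46884362 to 46931289), rose 4.13-fold, from 4.35 and 5.21 to 26.21 and 19.79 FPKM (adjusted p = 3.05e-10), against a rise of 0.28 without erastin. PCK2, the mitochondrial phosphoenolpyruvate carboxykinase, rose 2.48-fold, from 29.48 and 30.6 to 84.3 and 68.67 FPKM.

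The serine pathway itself was divided. Of 17 tested enzymes on the list 12 were higher and 1 lower (2 lower without siNS/Erastin replicate 1 or siDCAF8/Erastin replicate 1), with a median of 0.62. The folate enzymes MTHFD2 (0.77), ALDH1L2 (0.82) and SHMT1 (0.82) and the phosphatase PSPH (0.89), the last step of serine synthesis, were higher. PSAT1, the transaminase of the same pathway, fell, from 87.81 and 96.58 to 63.73 and 52.15 FPKM (-0.67, adjusted p = 5.75e-06). PHGDH, its first enzyme, was not called, at 82.41 and 89.55 against 83.27 and 70.03 FPKM (-0.17, adjusted p = 0.0636), and was called lower when siNS/Erastin replicate 1 (-0.23) or siDCAF8/Erastin replicate 1 (-0.29) was left out or the libraries were rescaled by median ratios (-0.20). Both had been lower in untreated siDCAF8, by -1.26 and -1.09, so for these genes the depletion's effect was smaller with erastin (differences of 0.59 and 0.92, adjusted p = 0.00403 and 4.54e-05). ASNS, the asparagine synthetase, showed this most sharply. It fell from 68.5 and 67.65 FPKM in siNS to 30.36 and 26.57 FPKM in siDCAF8 without erastin (-1.23). With erastin it was at 52.62 and 59.92 against 78.25 and 54.63 FPKM, with no call (0.22, adjusted p = 0.153), and was called higher without siDCAF8/Erastin replicate 2 (0.47) but stood at -0.04, not called, without replicate 1.

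Cytosolic tRNA synthetases charge tRNAs with their amino acids. Of 20, 15 were higher in siDCAF8/Erastin and 1 (WARS, -0.45) lower, with a median of 0.44. CARS, the cysteinyl enzyme, was at 37.8 and 39.73 FPKM in siNS/Erastin and at 81.2 and 73.19 FPKM in siDCAF8/Erastin (0.97, adjusted p = 6.31e-10). It did not differ by the test in untreated cells, at 71.01 and 72.73 against 72.84 and 67.59 FPKM (-0.03, adjusted p = 0.636). SARS (0.87), IARS (0.84), AARS (0.70) and TARS (0.63) rose too. HARS rose by 0.77 both with and without erastin (adjusted p of the difference = 0.988).

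Regulators and effectors of the ATF4 response were more mixed than the metabolic genes, with 10 of 21 higher, 2 lower and a median of 0.23. The lower count was 1 without siNS/Erastin replicate 2 or siDCAF8/Erastin replicate 2. ATF4 RNA rose slightly, from 366.77 and 364.37 to 483.34 and 440.08 FPKM (0.33, adjusted p = 0.000193). JDP2, a repressor that binds ATF and AP-1 sites, was at 2.28 and 2.7 FPKM in siNS/Erastin and at 11.62 and 9.47 FPKM in siDCAF8/Erastin (1.72, adjusted p = 2.8e-10). SESN2, a leucine sensor that restrains mTORC1, was at 12.72 and 10.96 against 44.64 and 36.86 FPKM (1.70, adjusted p = 1.63e-10). The pseudokinase TRIB3 was at 13.5 and 13.76 against 41.81 and 32.96 FPKM (1.38, adjusted p = 1.98e-09). Without erastin JDP2 (0.18) and TRIB3 (-0.03) were not called and SESN2 rose by 0.34, so that for all 3 genes the siNS/Erastin libraries were the lowest of the 4 groups. CEBPG, the dimer partner of ATF4, rose by 0.81, and NUPR1, a stress-induced chromatin protein, by 0.95.

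CHAC1, which degrades glutathione, had the largest called difference of effects among tested genes with a group mean of at least 5 FPKM (chromosome 15, 40953471 to 40956512). Its level was 33.82 and 37.87 FPKM in siNS and 7.2 and 6.15 FPKM in siDCAF8, and with erastin 3.71 and 5.41 against 5.35 and 5.52 FPKM. All 6 libraries with erastin, the siRNA or both were low. Untreated cells gave -2.26 (adjusted p = 1.45e-09), erastin-treated cells gave 0.23 with no call (adjusted p = 0.168), and the difference was 2.49 (SE 0.20, adjusted p = 1.78e-06). Without siNS/Erastin replicate 2 the treated value was called, at 0.45. DDIT4, an inhibitor of mTORC1, had the same shape: it was at 206.55 and 207.45 against 71.42 and 63.81 FPKM untreated and 47.26 and 54.62 against 51.81 and 51.9 FPKM with erastin, the last pair not called (0.03). DDIT3, the factor known as CHOP, was at 56.84 and 46.51 against 56.31 and 57.42 FPKM (0.14, adjusted p = 0.156), and was called higher without siNS/Erastin replicate 1 (0.28). GDF15, a secreted stress cytokine, went against the group and fell 2.44-fold, from 1943.77 and 1612.77 to 729.19 and 721.7 FPKM, much as it did without erastin (-1.51).

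**Figure D2:**
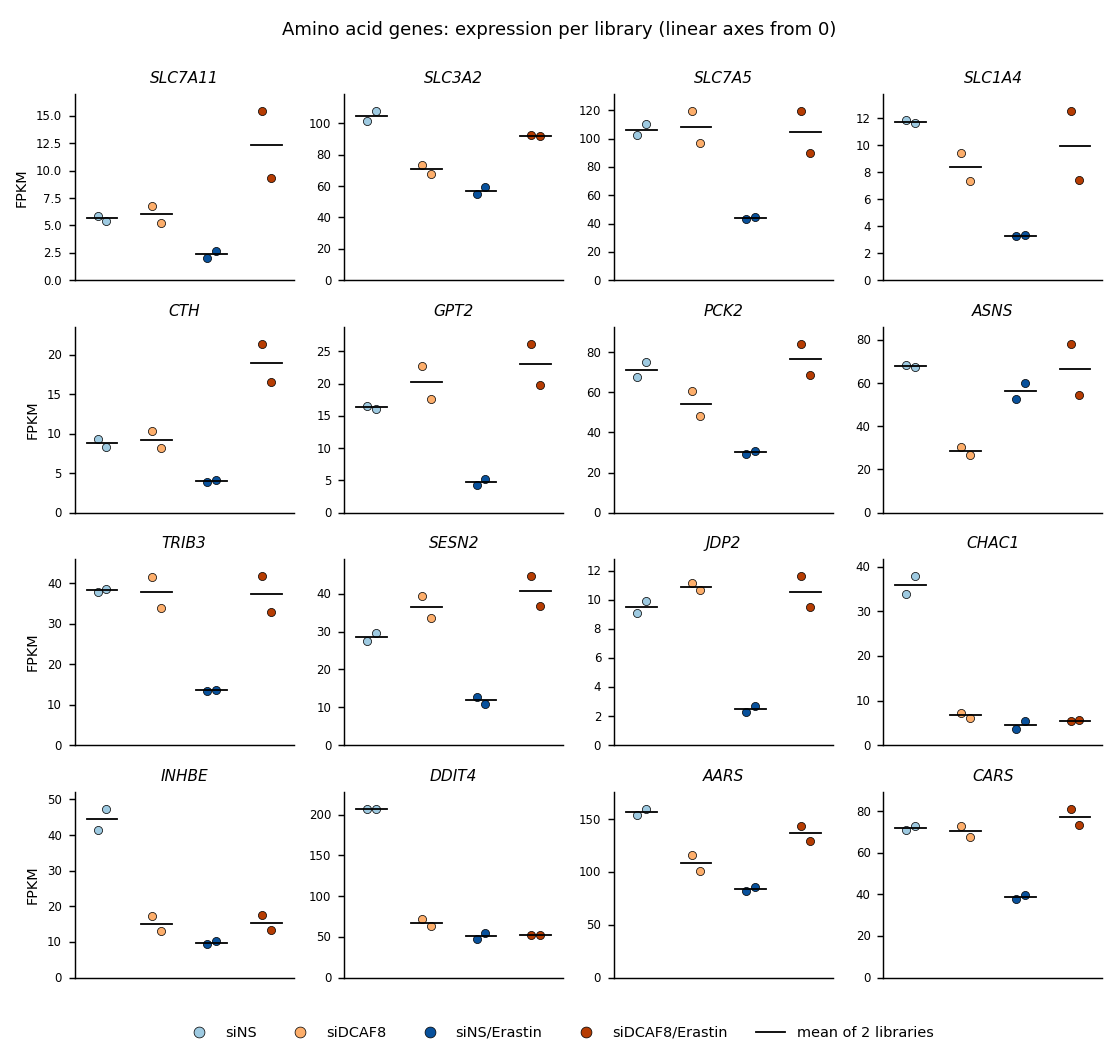
FPKM of 16 genes of amino acid supply and the ATF4 response in each library of siNS, siDCAF8, siNS/Erastin and siDCAF8/Erastin, on linear axes from 0, with a dot for each library and a line at the mean of 2. In SLC7A11 the siNS/Erastin libraries are lowest, at 2.02 and 2.69 FPKM, and the siDCAF8/Erastin libraries highest, at 9.32 and 15.43 FPKM, while in CHAC1 the untreated siNS libraries stand alone at 33.82 and 37.87 FPKM.

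Downstream of cystine import, the genes of glutathione synthesis and lipid peroxide removal went both ways: of 19 tested, 5 were higher and 7 lower, shares that together are near that of all tested genes (64.8% called), with a median of -0.03. GPX4, the peroxidase that clears lipid peroxides, was at 144.13 and 134.6 against 154.56 and 148 FPKM and missed the threshold (0.12, adjusted p = 0.0517). It passed, as higher, without siNS/Erastin replicate 1 (0.17), and also with the replicate block (adjusted p = 0.0462) or with no filter (adjusted p = 0.044). GSR, the reductase that regenerates glutathione, fell 2.03-fold, from 38.16 and 38.88 to 18.41 and 18.6 FPKM (-1.02, adjusted p = 1.66e-09). GCLC, the catalytic subunit of the first enzyme of glutathione synthesis, rose by 0.25, and its modifier subunit GCLM fell by 0.34, a call lost without siNS/Erastin replicate 2 (-0.19) or siDCAF8/Erastin replicate 2 (-0.20). AIFM2, known as FSP1, which regenerates ubiquinol independently of GPX4, fell by 0.40. DHODH, a mitochondrial counterpart, rose by 0.40, and NFS1, which takes sulfur from cysteine for iron-sulfur clusters, by 0.42.

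Targets of NRF2, the oxidative stress factor, were mostly lower. Of 29 tested, 21 were lower and 3 higher (SLC7A11, TXNRD1 and GCLC), with a median of -0.43. The call on TXNRD1, a thioredoxin reductase (0.27), was lost without siNS/Erastin replicate 1 (0.13) or siDCAF8/Erastin replicate 1 (0.16). In untreated cells 14 were lower and 3 higher, with a median of -0.19. NFE2L2, which encodes NRF2, was at 30.09 and 30.13 against 33.45 and 31.07 FPKM and was not called (0.10, adjusted p = 0.241). The pentose phosphate enzyme PGD fell by 0.78, UGDH by 0.85, and ABCB6, a porphyrin transporter, by 1.52, from 10.22 and 10.29 to 2.98 and 2.85 FPKM. AKR1C1 and AKR1C3, close paralogs whose reads may be shared, were lower by -0.98 and -0.51 and are uncertain. SQSTM1, an autophagy receptor that holds KEAP1 away from NRF2, stood at 484.05 and 478.96 FPKM in siNS/Erastin and at 310.22 and 253.99 FPKM in siDCAF8/Erastin (-0.78, adjusted p = 1.25e-07). Untreated levels of SQSTM1 lay between 169.99 and 198.26 FPKM in all 4 libraries, and the effects differed by -0.59 (adjusted p = 0.00114).

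The antioxidant response element TGACNNNGC occurred in the same window in 6 of 22 NRF2 targets with a promoter sequence and in 1475 of 9283 tested genes (15.9%). GCLM and ME1 (malic enzyme, -0.41) are shown as members with opposite orientation of the match, on the opposite strand in GCLM (chr1:93909446-93909474, minus strand) and on the gene's own strand in ME1 (chr6:83431170-83431198, minus strand).
GCLM: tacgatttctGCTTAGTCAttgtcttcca
ME1: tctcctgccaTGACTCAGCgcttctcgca

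Among iron genes, both ferritin chains and the inducible heme oxygenase were lower, and the transferrin receptor was higher. FTH1, the ferritin heavy chain that oxidises and stores iron (chromosome 11, 61964285 to 61967634), measured 2618.37 and 2950.83 FPKM in siNS/Erastin and 1092.85 and 819.05 FPKM in siDCAF8/Erastin, a 2.94-fold fall (-1.55, SE 0.10, adjusted p = 8.24e-10). It was also lower untreated, at 987.45 and 989.35 against 506.09 and 467.7 FPKM, and the effects differed by -0.53 (adjusted p = 0.011), or by -0.32, still called, without siDCAF8/Erastin replicate 2. The light chain FTL fell by 0.68, from 2456.3 and 2428.91 to 1552.64 and 1504.05 FPKM. HMOX1, which frees iron from heme (chromosome 22, 35381096 to 35394207), was at 111.03 and 241.49 FPKM in siNS/Erastin and at 59.95 and 27.84 FPKM in siDCAF8/Erastin. The groups did not overlap, but in ratio the libraries of each group lay further apart than the nearest libraries of the groups, and the fall of 1.97 carried an SE of 0.30 (adjusted p = 1.98e-05).

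All 4 untreated libraries had 10.13 to 15.09 FPKM of HMOX1, so its level with erastin was above the untreated level with either siRNA. Its difference of effects was -1.49 (SE 0.42, adjusted p = 0.0194), a call lost without siNS/Erastin replicate 2 (-0.94), siDCAF8/Erastin replicate 2 (-0.95), siNS replicate 1 (-1.46) or siDCAF8 replicate 1 (-1.48). IREB2, an iron regulatory protein that stabilises the transferrin receptor transcript and blocks ferritin translation, rose from 10.57 and 11.11 to 20.93 and 21.18 FPKM (0.90, adjusted p = 6.43e-09). The transferrin receptor TFRC rose by 0.40, the zinc and iron importer SLC39A14 by 0.58, the mitochondrial iron importer SLC25A37 by 0.72 and NCOA4, which delivers ferritin to autophagy, by 0.47, whereas the importer SLC11A2 fell by 0.36. The constitutive heme oxygenase HMOX2 rose by 0.51, and of the iron chaperones PCBP2 rose by 0.45 and PCBP1 fell by 0.30. Over 21 tested iron genes, 8 were higher and 7 lower (34.8% and 30% of all tested genes), with a median of -0.01.

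Lipid genes were mostly lower. Of 18 tested genes of fatty acid and ether lipid handling with a known part in ferroptosis, 12 were lower and 4 higher, with a median of -0.28. The desaturases that make polyunsaturated fatty acids were among them: FADS2 went from 106.32 and 97.96 to 41.18 and 45.31 FPKM (-1.22, adjusted p = 6.79e-10) and FADS1 from 95.7 and 91.76 to 42.61 and 47.27 FPKM (-1.05, adjusted p = 1.2e-08). TMEM189, which completes plasmalogens and may share reads with a read-through transcript, went from 13.18 and 11.64 to 4.41 and 4.24 FPKM (-1.33). The earlier plasmalogen steps went the other way, with GNPAT at 0.59, AGPS at 0.39 and FAR1 at 0.46. ACSL4, which loads polyunsaturated fatty acids into membrane lipids and promotes ferroptosis, rose by 0.30, from 39.94 and 41.04 to 48.31 and 52.09 FPKM, and LPCAT3, which acts after it, fell by 0.24. Of the VDAC channels that erastin also binds, VDAC2 fell by 0.28, and of their ubiquitin ligases NEDD4 rose by 0.41 and NEDD4L by 0.50.

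Cholesterol synthesis was lower almost throughout: 19 of 24 tested genes fell and 1 rose, with a median of -0.56, against 12 lower, 2 higher and a median of -0.20 in untreated cells. HMGCS1, an early enzyme, was at 110.33 and 99.02 FPKM in siNS/Erastin and at 43.05 and 66.33 FPKM in siDCAF8/Erastin (-0.95, adjusted p = 5.2e-06). Untreated levels lay between 45.59 and 58.46 FPKM with either siRNA. SQLE, the squalene epoxidase, fell by 0.82. STARD4, a sterol carrier, fell most, from 55.89 and 50.84 to 11.24 and 16.64 FPKM (-1.89, adjusted p = 1.56e-09). The gene that rose was SREBF1, which encodes the lipogenic SREBP1, from 17.42 and 15.33 to 36.13 and 31.22 FPKM, while SREBF2, which drives sterol synthesis, was not called (adjusted p = 0.981). In nearly all sterol enzymes siDCAF8/Erastin replicate 1 was lower than replicate 2, and without replicate 1 the list's median was -0.36.

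**Figure D3:**
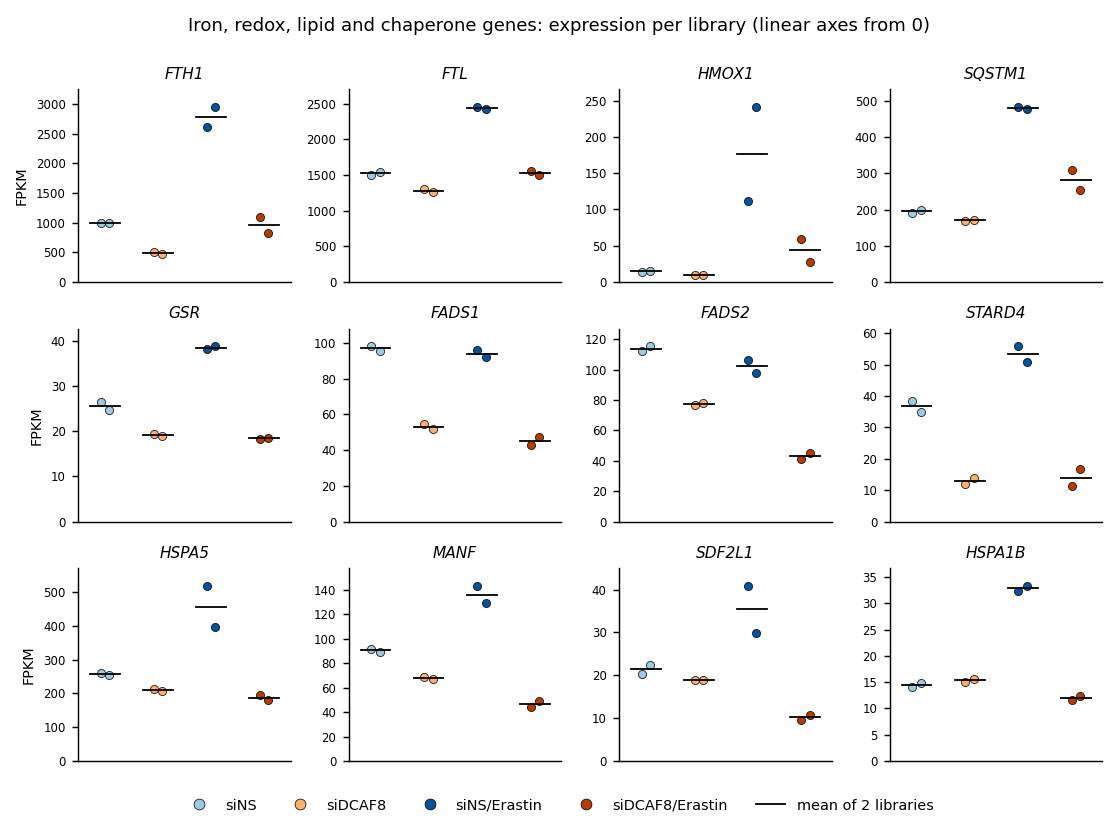
FPKM of 12 genes of iron handling, glutathione, lipid metabolism and chaperones in each library of siNS, siDCAF8, siNS/Erastin and siDCAF8/Erastin, on linear axes from 0, with a dot for each library and a line at the mean of 2. FTH1 is at 2618.37 and 2950.83 FPKM in siNS/Erastin and no higher than 1092.85 FPKM in the other libraries, HMOX1 spreads from 111.03 to 241.49 FPKM there, and HSPA5 and MANF are highest in the same 2 libraries.

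Chaperones of the endoplasmic reticulum were lower in siDCAF8/Erastin, and by more than without erastin. Of 23 tested genes of the unfolded protein response, 18 fell and 2 rose, with a median of -0.51, against 12 lower, 1 higher and a median of -0.17 in untreated cells. The 2 that rose were 1 without siNS/Erastin replicate 1. The difference of effects was called lower for 13 of them and higher for 2. HSPA5, known as BiP, the main chaperone of this compartment (chromosome 9, 125234853 to 125241343), measured 519.61 and 395.61 FPKM in siNS/Erastin and 194.86 and 180.73 FPKM in siDCAF8/Erastin (-1.27, SE 0.09, adjusted p = 6.22e-09). Untreated siNS stood at 261.44 and 253.97 FPKM and siDCAF8 at 214.3 and 207.46 FPKM, so that only siNS/Erastin was high. MANF, a secreted cofactor of BiP, went from 143.63 and 129.03 to 44.15 and 49.34 FPKM (-1.52), and SDF2L1 from 40.9 and 29.81 to 9.62 and 10.67 FPKM (-1.69).

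HSP90B1 (-0.92), PDIA6 (-0.83) and CALR (-0.76), which fold secreted proteins, fell as well. XBP1, the transcription factor of the IRE1 arm, went the other way, from 69.79 and 62.48 to 109.75 and 96.79 FPKM (0.63, adjusted p = 5.73e-07), without a call in untreated cells (-0.15, adjusted p = 0.0642). FPKM per gene does not separate its spliced form. ATF6, the sensor of another arm, rose by 0.21.

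Of 22 tested heat shock proteins and chaperones, 6 were higher and 8 lower with erastin (34.8% and 30% of all tested genes), with a median of -0.02. In untreated cells 14 were higher and 3 lower (31% and 29.9% of all tested genes), with a median of 0.28. The higher count with erastin was 3 without siNS/Erastin replicate 1. HSPB8, a small heat shock protein, fell 4.07-fold, from 48.82 and 44.18 to 10.21 and 11.14 FPKM (adjusted p = 2.17e-12), and DNAJB4 fell 3.24-fold, from 20.53 and 20.31 to 6.01 and 5.23 FPKM. The inducible HSP70 genes HSPA1A and HSPA1B, near-identical copies whose reads cannot be assigned with certainty, were lower by -1.75 and -1.38. HSPA1B was at 32.3 and 33.35 FPKM in siNS/Erastin and between 11.63 and 15.64 FPKM in the other 6 libraries of the 4 groups. HSPH1, their nucleotide exchange factor, was at 32.45 and 34.15 against 32.56 and 32.83 FPKM with erastin (-0.03, adjusted p = 0.745), while without erastin it rose from 17.46 and 15.89 to 29.1 and 33.11 FPKM. The mitochondrial chaperones HSPD1 and HSPA9 rose by 0.63 and 0.54.

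The heat shock element, searched as 3 alternating GAA and TTC units spaced 2 bases apart on both strands, was found before the start of 6 of 20 listed genes with a promoter sequence and of 41 of 9283 tested genes (0.442%). HSP90AA1 (0.15, not called, adjusted p = 0.0677) and HSP90AB1 (-0.37), the inducible and the constitutive cytosolic HSP90, are shown as close relatives with the element and different values. The capitals read along the gene and, in its other form, the element also reads on the opposite strand. The stretches lie at chr14:102087112-102087140 (minus strand) and chr6:44247823-44247851 (plus strand).
HSP90AA1: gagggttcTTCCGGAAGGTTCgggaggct
HSP90AB1: tgagattgTTCTGGAAGCTTCtggattct

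Hypoxia genes and glycolytic enzymes were lower with and without erastin. HIF1A, the oxygen-regulated transcription factor (chromosome 14, 61695513 to 61748258), measured 222.51 and 228.58 FPKM in siNS/Erastin and 58.91 and 64.6 FPKM in siDCAF8/Erastin, a 3.61-fold fall (-1.85, SE 0.07, adjusted p = 5.19e-12). The untreated fall was -1.74, and the effects did not differ by the test (-0.11, SE 0.10, adjusted p = 0.448). CA9, a carbonic anhydrase and classical HIF target, was at 11.64 and 11.04 against 0.15 and 0.23 FPKM (-3.37, or -5.32 with a pseudocount of 0.1). PLOD2, a collagen lysyl hydroxylase, went from 147.54 and 160.62 to 32.12 and 33.26 FPKM (-2.20, adjusted p = 6.28e-13). LOX, which crosslinks collagen, fell by 1.92, the mitophagy receptor BNIP3 by 1.34 and the secreted glycoprotein STC1 by 1.46, while KDM3A and BNIP3L were at -0.03 and -0.04. Of 20 tested hypoxia genes, HIF1A itself included, 15 fell and 0 rose, with a median of -0.79, 9 of them by at least 2-fold. In untreated cells 18 fell, with a median of -0.59, and the difference of effects was called for 1 of the 20, CA12.

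Among 24 glycolysis genes, 15 fell and 1, the lactate carrier SLC16A1, rose, with a median of -0.39. GAPDH, often used as a reference gene, was at 5302.25 and 5164.79 FPKM in siNS/Erastin and at 2602.48 and 2586.63 FPKM in siDCAF8/Erastin (-1.01, adjusted p = 4.27e-11), with -0.89 untreated. The enzymes ALDOC (-1.96), ENO2 (-1.82), ALDOA (-1.13), LDHA (-1.04) and TPI1 (-0.96) fell as well. Hexokinases and phosphofructokinases, the earlier control points, showed little. HK2 (21.92 and 20.07 against 20.66 and 21.26 FPKM), PFKL (20.17 and 21.06 against 19.49 and 21.78 FPKM) and PFKP (0.06) were not called, and PFKM fell by 0.15.

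**Figure D4:**
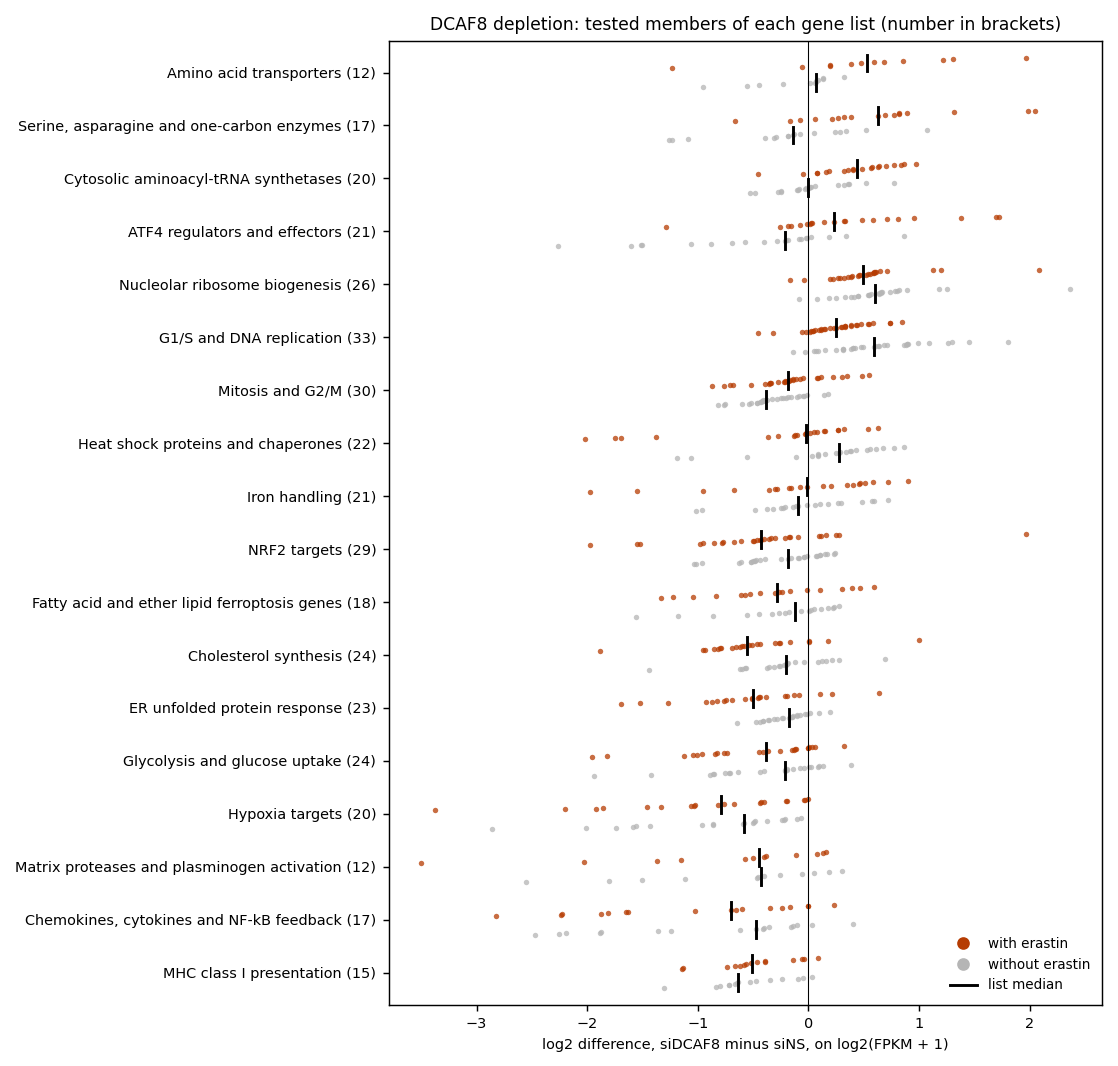
Log2 difference of each tested member of 18 gene lists, siDCAF8/Erastin against siNS/Erastin beside siDCAF8 against siNS, with a dot for each gene and a line at the list's median. Amino acid lists have medians above 0 with erastin (0.53 for transporters) and near or below 0 without, hypoxia targets lie below 0 in both (-0.79 and -0.59), and nucleolar genes above 0 in both (0.49 and 0.60).

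Most listed genes of matrix proteases and plasminogen activation were lower, though PRSS23, a secreted protease outside that list, rose by 1.83. MMP9, a gelatinase long studied in this line (chromosome 20, 46008908 to 46016561), was at 47.52 and 48.29 FPKM in siNS/Erastin and at 3.53 and 3.13 FPKM in siDCAF8/Erastin, 11.3-fold lower (-3.50, SE 0.19, adjusted p = 2.16e-10). It was also lower untreated, at 35.26 and 38.67 against 5.73 and 5.23 FPKM, and the effects differed by -0.95 (adjusted p = 0.0198). The activator PLAT and the receptor PLAUR fell by 1.37 and 1.16, whereas PLAU, the receptor's ligand, was not called (0.13). Of 12 tested protease and plasminogen genes 8 fell and 0 rose (1 rose without siDCAF8/Erastin replicate 2), with a median of -0.45, and the inhibitors TIMP1 (-0.40) and TIMP2 (-0.50) were among those that fell.

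Matrix genes went both ways, with 10 of 20 lower and 6 higher (30% and 34.8% of all tested genes). LAMA5, a basement membrane laminin, was at 5.41 and 5.12 against 0.55 and 0.56 FPKM (-2.01, or -3.03 with a pseudocount of 0.1), and COL6A1 fell by 1.14. COL5A1 rose by 1.11, from 5.55 and 5.18 to 12.93 and 12.45 FPKM, and TGFBI, a secreted adhesion protein, by 1.37, from 3.92 and 4.76 to 13.39 and 12.11 FPKM. Of the adhesion receptors, integrin ITGA2 fell by 1.27 and ITGB3 by 0.85, while ITGA6 rose by 0.62 and N-cadherin CDH2 by 0.71. Genes of TGF-beta signalling were lower in 8 of 17 cases and higher in 3 (30% and 34.8% of all tested genes). The ligand TGFB1 fell by 1.25, its receptor TGFBR1 by 0.92, the latency protein LTBP1 by 0.99 and the response gene ID1 by 1.03. LTBP2 rose by 1.05.

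Targets of YAP and TAZ did not move as one. Over all tested genes 34.8% were higher and 30% lower, the shares beside which the counts here stand. CTGF, a matricellular target (chromosome 6, 131948176 to 131951372), was at 214.16 and 183.27 FPKM in siNS/Erastin and at 25.1 and 31.21 FPKM in siDCAF8/Erastin (-2.78, SE 0.10, adjusted p = 2.11e-12). CYR61 and ANKRD1, 2 further targets, were not called, at -0.04 and 0.18, and AXL, a receptor kinase, rose by 0.86. YAP1 itself rose by 0.69, from 31.44 and 31.79 to 50.6 and 52.73 FPKM, and WWTR1, which encodes TAZ, fell by 0.68, from 68.93 and 73.18 to 44.31 and 43.45 FPKM. In all, 6 of 18 list members were lower and 3 higher (5 without siNS/Erastin replicate 2), with a median of -0.09. DUSP1, a phosphatase of MAP kinases, fell 5.07-fold, from 35.28 and 31.07 to 5.21 and 6.28 FPKM, as it did untreated (-2.18), and of 13 RAS-MAPK feedback genes 8 were lower and 3 higher, or 1 higher without siNS/Erastin replicate 2. Of 14 early response genes 5 were higher (3 without siNS/Erastin replicate 2 or siDCAF8/Erastin replicate 1) and 5 lower, with KLF2 at 1.39, FOSL1 at 0.70 and SRF at -0.69.

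Inflammatory and antigen presentation genes were lower. CCL5, a chemokine for T cells (chromosome 17, 35871491 to 35880360, with a further copy on an alternate scaffold that makes its value uncertain), was at 123.63 and 114.56 against 17.68 and 14.42 FPKM (-2.82, adjusted p = 4.72e-12). The cytokines IL1B (4.33 and 5.05 against 0.27 and 0.16 FPKM), IL6 (8.1 and 8.39 against 1.53 and 1.73 FPKM) and IL1A (7.25 and 8.11 against 1.46 and 2.19 FPKM) were all lower. TNFAIP3, a feedback inhibitor of NF-kB, fell by 1.88, from 8.03 and 8.08 to 1.47 and 1.45 FPKM. Over 17 tested chemokine, cytokine and NF-kB feedback genes, 12 were lower and 1 higher, with a median of -0.70, or -1.16 with a pseudocount of 0.1. None was higher when siNS/Erastin replicate 1 or either siDCAF8/Erastin library was left out. CCL3, a chemokine with near-identical copies and so uncertain, was at 18.38 and 16.74 FPKM in siNS/Erastin and between 1.7 and 4.02 FPKM in the other 6 libraries of the 4 groups.

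Of 31 interferon-stimulated genes 19 fell and 1 rose (0 to 3 when each library in turn was left out), with a median of -0.33 both with and without erastin. TRIM22 fell by 2.33, from 9.56 and 9.18 to 1.17 and 0.96 FPKM. Of 15 genes of MHC class I presentation 11 fell and 0 rose, with a median of -0.52, or -0.34 once GC content and length were removed. They included PSMB9, an immunoproteasome subunit (-1.14), TAPBP, which loads peptides (-1.14), and the heavy chain HLA-B (-0.66, uncertain because HLA genes share sequence). The leukocyte markers CD68 and LCP1 fell by 0.33 and 0.51 in the same libraries, and the part of other cells in these results was not tested. Of the markers that define leukocytes, PTPRC was at 0.97 and 1.13 against 1.13 and 1.71 FPKM, and CD3E lay between 0.57 and 0.85 FPKM.

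**Figure D5:**
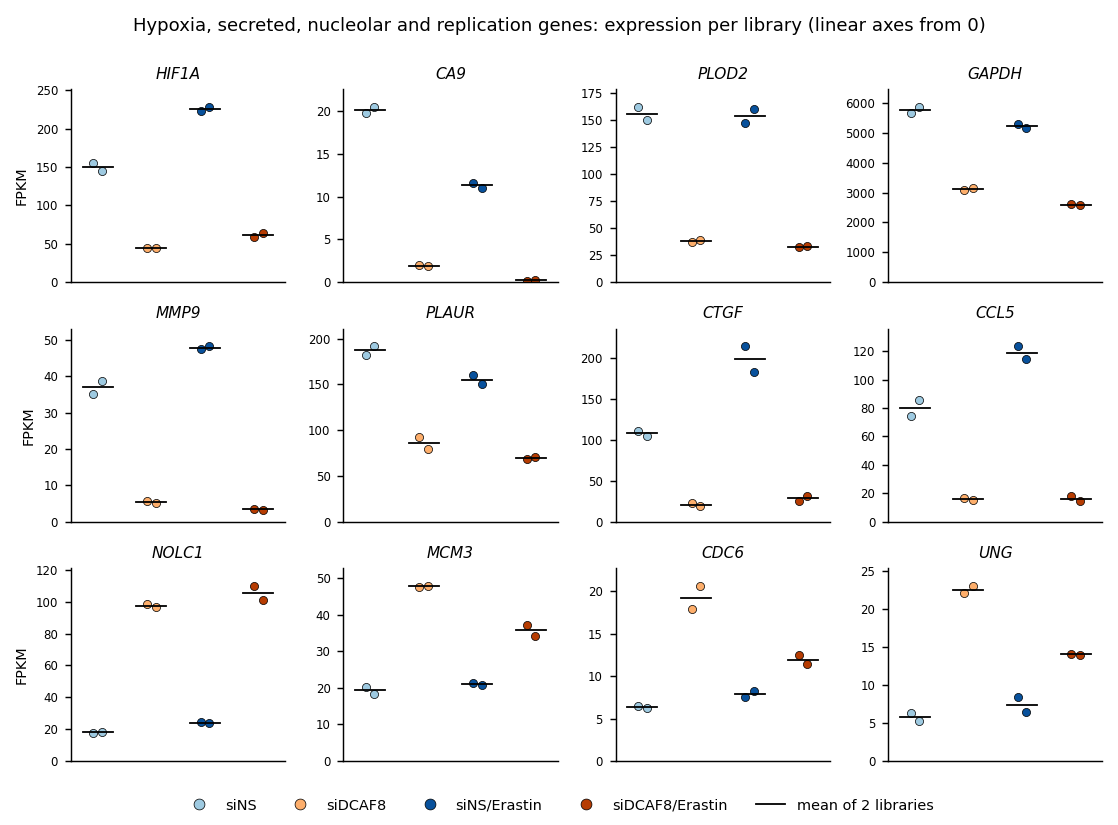
FPKM of 12 genes of hypoxia, secretion, ribosome biogenesis and replication in each library of siNS, siDCAF8, siNS/Erastin and siDCAF8/Erastin, on linear axes from 0, with a dot for each library and a line at the mean of 2. HIF1A, PLOD2, GAPDH and MMP9 are low in all 4 siDCAF8 libraries, NOLC1 is high in them, from 96.41 to 110.12 FPKM, and UNG and CDC6 are higher in untreated than in erastin-treated siDCAF8 cells.

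Genes of ribosome assembly rose. The shares over all tested genes, beside which the counts of this paragraph stand, were 34.8% higher and 30% lower with erastin. Without erastin they were 31% higher and 29.9% lower. Of 26 tested nucleolar factors 24 were higher and 1 (FBL, -0.17) lower, the latter not called without siDCAF8/Erastin replicate 1, with a median of 0.49, and 24 were higher in untreated cells, with a median of 0.60. NOLC1, a chaperone of small nucleolar RNA complexes (chromosome 10, 102152389 to 102163870), went from 24.6 and 23.61 to 110.12 and 101.07 FPKM, a 4.24-fold rise (log2 2.09, SE 0.05, adjusted p = 1.08e-13). NOP56, of the box C/D particle, rose 2.18-fold, from 44.3 and 48.6 to 111.92 and 93.76 FPKM, UTP20 rose 2.29-fold, and nucleolin, NCL, rose by 0.60. Mitochondrial ribosomal proteins were higher in 16 of 25 cases and lower in 4, among the higher ones MRPL1 (0.95), MRPL15 (0.94) and MRPL4 (0.81). Cytosolic ribosomal proteins stayed close to 0, with 4 of 30 higher, 2 lower and a median of -0.01. Their higher count was 13 with quantile normalization, 17 once GC content and length were removed, and 2 without siNS/Erastin replicate 1 or siDCAF8/Erastin replicate 2, and the lower count was 1 without replicate 1 of either group. Respiratory chain subunits were lower in 15 of 29 cases and higher in 4 (2 without siNS/Erastin replicate 1 or siDCAF8/Erastin replicate 2), between -0.40 and 0.50.

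Replication genes rose less with erastin than without. Of 33 tested genes of the G1/S step and DNA replication, 19 were higher and 2 lower with erastin, with a median of 0.25, and 28 were higher in untreated cells, with a median of 0.59. The difference of effects was called lower for 17 and higher for 0. MCM3, of the replicative helicase, went from 21.22 and 20.79 to 37.33 and 34.13 FPKM with erastin (0.74, adjusted p = 3.06e-08) and from 20.31 and 18.41 to 47.65 and 47.97 FPKM without (1.26). UNG, the uracil glycosylase, went from 8.41 and 6.45 to 14.1 and 13.98 FPKM with erastin and from 6.26 and 5.3 to 22.04 and 23.07 FPKM without, a difference of -0.95 (adjusted p = 0.000284). CDC6, which loads that helicase, differed by -0.91. TK1, the thymidine kinase, fell with erastin, from 23.53 and 20.88 to 16.25 and 15.63 FPKM (-0.45).

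Either E2F site, TTTCCCGC or TTTGGCGC on either strand, was present before the start in 11 of 26 listed genes with a promoter sequence and in 380 of 9283 tested genes (4.09%). MCM3 (chr6:52284898-52284927, minus strand) and PCNA (chr20:5126663-5126692, minus strand, match on the opposite strand) are shown because their difference of effects, -0.53 and -0.45, was called.
MCM3: cggatggtacgTTTCCCGCcaccgcggggc
PCNA: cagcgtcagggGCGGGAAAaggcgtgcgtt

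Mitotic genes were lower in 16 of 30 cases and higher in 5 with erastin, with a median of -0.18. Without erastin 22 were lower and 1 higher, with a median of -0.38. Over all tested genes 30% were lower and 34.8% higher with erastin, and 29.9% lower and 31% higher without. CENPA, the centromeric histone, went from 12.96 and 12.91 to 6.4 and 6.8 FPKM (-0.88), BUB1B, a checkpoint kinase, fell by 0.77 and KIF20A, a kinesin of cytokinesis, by 0.71. TOP2A and HMMR rose by 0.48 and 0.54. The lower count was 10 and the median -0.09 without siDCAF8/Erastin replicate 1, which was below replicate 2 in each of the 30 genes. The cell cycle homology region TTTGAA was in the promoter window of 14 of 26 of them and of 11.8% of all tested genes.

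Of 22 tested targets of the transcription factor p53, 10 were higher and 6 lower (34.8% and 30% of all tested genes), with a median of 0.22. The ubiquitin ligase MDM2 rose by 0.81, BBC3, a BH3-only death protein, by 0.98 and BTG2, which slows proliferation, by 1.20. CDKN1A, the kinase inhibitor p21, fell 2.07-fold, from 513.23 and 444.49 to 226.28 and 233.58 FPKM, and the death receptor TNFRSF10B fell by 1.02.

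Of 26 autophagy and lysosome genes 15 were lower and 4 higher (2 higher without siNS/Erastin replicate 2 or siDCAF8/Erastin replicate 1), among them GABARAPL1, a membrane-conjugated ATG8 protein, from 38.09 and 34.3 to 12.83 and 10.56 FPKM (-1.55), OPTN, a cargo receptor (-0.84), and BECN1, of the initiating lipid kinase complex, which rose by 0.80. Proteasome subunits were lower in 14 of 32 cases and higher in 5 (3 without replicate 1 of either group), between -0.66 for PSMB3 and 0.48 for PSMD12. Of 9 intermediate filament genes 5 were higher and 0 lower. They were led by KRT80, from 3.11 and 3.05 to 18.85 and 14.31 FPKM (2.10), and KRT18, from 82.06 and 82.38 to 165.71 and 156.31 FPKM (0.96). The counts in this paragraph stand beside 34.8% higher and 30% lower over all tested genes.

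The largest rises included genes outside these groups. GMFG, a regulator of the ARP2/3 complex, went from 2.94 and 2.9 to 15.15 and 21.54 FPKM (2.28, adjusted p = 1.28e-09), with 1.38 in untreated cells. PRSS23, a secreted serine protease, went from 62.4 and 64.03 to 226.42 and 227.53 FPKM (1.83), ZW10, of the kinetochore, from 3.39 and 3.87 to 14.19 and 13.49 FPKM (1.68), and MYBL1, a MYB-family factor, from 6.47 and 6.85 to 26.47 and 27.35 FPKM (1.87). PRSS23 and ZW10 had nearly the same value without erastin, 1.82 and 1.59. Among falls, PIK3IP1, an inhibitor of PI3-kinase, went from 15.66 and 12.89 to 1.34 and 1.72 FPKM (-2.59), and PRG2 from 8.59 and 8.28 to 0.15 and 0.13 FPKM (-3.05, or -5.15 with a pseudocount of 0.1).

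The second treated arm that received the DCAF8 siRNA, siDCAF8+siLSH/Erastin, was set against the same siNS/Erastin libraries, so its values share those controls and are given side by side without a test of likeness. There DCAF8 was at -1.17, a smaller fall than the -1.71 in siDCAF8/Erastin, and HELLS at -0.47 where siDCAF8/Erastin had 0.62. Called genes numbered 7434 of 11260 (66%), 4423 higher (39.3%) and 3011 lower (26.7%). For amino acid genes the values were 1.77 for SLC7A11 (1.96 in siDCAF8/Erastin), 1.54 for CTH (1.99), 1.95 for GPT2 (2.04), 1.35 for TRIB3 (1.38) and 0.72 for SESN2 (1.70). HMOX1 was at 0.38 where siDCAF8/Erastin had -1.97, FTH1 at -0.81 (-1.55) and HSPA1B at -0.35 (-1.38). HIF1A was at -1.74 (-1.85), MMP9 at -3.77 (-3.50), CTGF at -2.55 (-2.78) and NOLC1 at 2.01 (2.09). Further genes differed in sign, among them the receptor kinase AXL at -0.55 (0.86) and the inhibitor TIMP1 at 0.37 (-0.40). Differences were not confined to these. GMFG was at 0.20 (2.28), not called, MYBL1 at 0.20 (1.87) and NRSN1 at 0.41 (-1.62), not called. Of 29 respiratory chain subunits 21 were higher and 0 lower, where siDCAF8/Erastin had 4 higher and 15 lower. The 29 tested NRF2 targets had a median of 0.03 (-0.43).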

How the data were processed

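RNA-seq of HT-1080 cells was deposited by the authors as 1 table of FPKM per gene for 16 libraries in 8 groups of 2. Per the submitters' processing notes, StringTie and GRCh38 were used, while the aligner and annotation were not given in the sources used here. Total RNA was extracted with Trizol and sequenced on a BGISEQ-500, per the labels. The table lists 24107 entries, 6555 of them without values, and 28 symbols stored as dates were restored. No mitochondrial gene had values.

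Values were taken as log2(FPKM + 1), and genes whose mean was 1 FPKM or more were fitted with limma 3.58.1 (R 4.3.3, trend, 8 group means over the 16 libraries, 8 residual degrees of freedom), two-sided, with Benjamini-Hochberg adjustment per contrast and calls at adjusted p under 0.05. FPKM are not counts, so no count model was used, and depth was estimated from the steps between low values. Where a library was left out, the lone sample was assumed to vary like the other groups. The lists and members were chosen with earlier results of these data known. Named were DCAF8, HELLS and WDR76, the 15 largest rises and falls among called genes with a group mean of at least 5 FPKM and no overlap, the 6 largest and smallest differences of effects, and up to 6 members per list in order of p with context members. Alternatives were another pseudocount, filter, scaling, fit, replicate block, GC and length correction, and leaving out each library. Promoters are RefSeq (GRCh38.p14), with 9283 tested genes matched. The fit was tested on simulated data. Results on some genes are not reported here.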

Additional observations from a re-analysis of the deposited data

Results flagged for a closer look

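For the genes given here, the depletion's effect with erastin differed from its effect without it by limma's test of that difference, with Benjamini-Hochberg adjustment over the 11260 tested genes. CHAC1, INHBE, CTH, SLC7A11, C5AR1 and GPT2 had the 6 largest and NRSN1, CCL3, SDF2L1, HMOX1, HSPA1B and PLK2 the 6 smallest called differences among genes with a group mean of at least 5 FPKM, and the others, list members and WDR76 (-0.45, adjusted p = 0.0471), were chosen after their values were seen. The difference is the log2 effect with erastin minus the one without. It was called for 20.8% of all tested genes.

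Of the 70 tested amino acid and ATF4 genes, the difference was called higher for 49 and lower for 3, SLC1A3 (-0.29) among the latter. It was 2.49 for CHAC1, 1.94 for CTH, 1.90 for SLC7A11, 1.76 for GPT2, 1.76 for SLC1A4, 1.70 for PCK2, 1.63 for DDIT4, 1.54 for JDP2, 1.45 for ASNS, 1.41 for TRIB3, 1.36 for SESN2, 1.24 for SLC3A2, 1.23 for AARS, 1.20 for SLC7A5 and 1.03 for DDIT3. INHBE, which encodes an activin subunit, differed by 2.09 (adjusted p = 3.68e-06). INHBE was at 41.46 and 47.41 FPKM in siNS and at 17.19 and 13.07 FPKM in siDCAF8. With erastin it was at 9.48 and 10.16 FPKM in siNS/Erastin and at 17.52 and 13.25 FPKM in siDCAF8/Erastin. The order of control and DCAF8 siRNA was thus opposite with and without erastin. XBP1 differed by 0.79.

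C5AR1, the receptor for complement C5a, differed by 1.81 (adjusted p = 0.000508). It fell from 12.69 and 13.11 to 2.96 and 2.13 FPKM without erastin, while with erastin it was at 4.19 and 4.73 against 5.49 and 2.61 FPKM and the groups overlapped. Without siDCAF8/Erastin replicate 1 that value was called, at -0.60. PLK2, a polo-like kinase, gave the opposite shape with a difference of -1.33. It rose from 40.87 and 38.91 to 101.44 and 112.91 FPKM without erastin, and with erastin it was at 72.23 and 86.11 against 88.25 and 78.41 FPKM, again with overlap.

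Among chaperones and other stress genes, negative differences were -1.52 for SDF2L1, -1.11 for MANF, -0.98 for HSPA5, -1.46 for HSPA1B, -0.88 for HSPH1, -1.49 for HMOX1, -0.53 for FTH1 and -0.59 for SQSTM1. Over 21 iron genes it was called higher for 2 and lower for 4, with a median of 0.07. That of HMOX1 was no longer called without siNS/Erastin replicate 2 (-0.94), siDCAF8/Erastin replicate 2 (-0.95), siNS replicate 1 (-1.46) or siDCAF8 replicate 1 (-1.48). The chemokine CCL3 differed by -1.62, with reads that may come from near-identical copies. NRSN1, a vesicle protein of neurons, differed by -1.74 (adjusted p = 0.000294). It was low only in siDCAF8/Erastin, at 1.15 and 1.30 FPKM, and lay between 3.63 and 6.09 FPKM in the other 6 libraries of the 4 groups.

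Of the replication and chromatin genes, CDC6 differed by -0.91, UNG by -0.95 and UHRF1, which brings DNMT1 to newly copied DNA, by -0.89. UHRF1 rose from 9.40 and 9.54 to 19.83 and 20.62 FPKM without erastin and was at 9.79 and 10.01 against 10.91 and 10.88 FPKM with it, where it was not called (0.13, adjusted p = 0.0919), though it passed with GC content and length removed (0.18).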

How the results depend on the processing

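With 2 libraries a group and FPKM in place of counts, low genes are the least certain. The 7293 calls numbered between 5928 (mean of at least 5 FPKM, 8691 genes) and 7590 (no filter) under other settings, and 6309 to 6702 when each library was left out in turn. Of calls, 50.3% to 54.8% were higher in siDCAF8/Erastin. A pseudocount of 0.1 raised the genes past 2-fold from 490 to 827.

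Leaving out a library gave 5887 to 6063 calls untreated and 1315 to 2330 for the difference of effects (691 to 1271 higher, 624 to 1059 lower), with 1315, 1329 and 1532 without siNS/Erastin replicate 1, siNS replicate 1 and siDCAF8 replicate 1. The cause was not tested.

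The deviations of same-numbered libraries had r = -0.115 between siNS/Erastin and siDCAF8/Erastin and r between -0.208 and 0.151 over the 6 pairs of these 4 groups, so the numbers were not taken to pair them. With the replicate number as a block there were 7314 calls, 6920 untreated and 2404 for the difference. Crossed numbers, a setting chosen after seeing the data, gave 7315.

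Signs turned in genes that were not called: WDR76 (-0.025 to 0.23), PLK2 (-0.049 to 0.20) and DDIT4 (-0.074 to 0.13), lowest without siNS/Erastin replicate 1, HSPH1 (-0.061 to 0.011), highest without siNS/Erastin replicate 2, ASNS (-0.039 to 0.47), lowest without siDCAF8/Erastin replicate 1, where PLK2 was at -0.0083, C5AR1 (-0.60 to 0.25), highest without siDCAF8/Erastin replicate 2, ATF3 (-0.18 to 0.23, lowest without siDCAF8/Erastin replicate 2, with -0.028 without siNS/Erastin replicate 2, -0.0024 after median-ratio scaling and -0.017 after quantile normalization) and, after the latter, B2M (0.0023). RPS9, which was called, was at 0.054 and not called with GC content and length removed, nor called without siNS/Erastin replicate 1 (-0.11) or siDCAF8/Erastin replicate 1 (-0.13). GPX4 was called higher with quantile normalization (0.18) and with GC content and length removed (0.21). ATF4 was at 0.54 with quantile normalization, and TIMP1 at -0.23 and ACSL4 at 0.20 with GC content and length removed. HMOX1, FTH1 and WDR76 lost the call on their difference of effects with no filter, and WDR76 also with the replicate block. Among single-gene values under other settings, 3641 kept direction and side of the threshold, 34 lost a call, 22 gained one and 13 changed sign.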

Other observations

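Several genes with large differences belong to none of the gene groups described above. FAM107B, at 2.96 and 3.47 FPKM in siNS/Erastin, was at 15.98 and 11.71 FPKM in siDCAF8/Erastin (1.80, limma adjusted p = 7.39e-10), and its untreated rise was 0.39. HRNR, which encodes the epidermal protein hornerin, went from 1.12 and 1.13 to 8.34 and 7.52 FPKM with erastin (2.07) and from 1.21 and 1.04 to 7.79 and 7.48 FPKM without (2.02). PRKAR1B, a regulatory subunit of protein kinase A, rose by 1.97 and by 2.20 in the same order. For HRNR and PRKAR1B the siDCAF8 libraries were high whether or not erastin was present.

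Among falls, GPR176, an orphan receptor, went from 30.76 and 30.12 to 6.23 and 6.03 FPKM with erastin (-2.14) and from 23.22 and 23.89 to 7.30 and 7.46 FPKM without (-1.55), a difference of -0.59 (adjusted p = 0.000623). IGFN1 fell by 2.22 with erastin and by 2.07 without, and ZP1, named for the egg coat protein it encodes, fell by 2.30 and 2.01. SAA2, an acute-phase apolipoprotein whose reads may be shared with SAA1, was at 80.35 and 91.56 against 20.08 and 19.74 FPKM with erastin and at 35.50 and 39.17 against 10.10 and 9.80 FPKM without, and its value is uncertain.

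The other marker lists stayed low. The 5 endothelial markers summed to 2.44 to 2.51 FPKM in siNS/Erastin and 1.25 to 1.31 FPKM in siDCAF8/Erastin, and the 5 neural markers to 1.44 to 1.72 and 0.79 to 0.80 FPKM, with SOX10 at 0 in siDCAF8/Erastin.

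In a principal component analysis of the 16 libraries, the first component (53.8% of the variance) set the oeWDR76 libraries apart. The second (24.4%) separated the siNS and siNS/Erastin libraries, at -33.4 to -28.9, from siDCAF8 and siDCAF8/Erastin, at 9.06 to 12.9. The share of the main difference's variance across genes that GC content and length held was 2.51%, against 9.25% for the difference of effects.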
